A study of Mus musculus with 8 samples.

Results

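The genes described here encode the receptors that platelets carry on their surface and one of the main proteins stored in their granules. The list names 10 mouse genes: Itga2b, Itgb3, Gp1ba, Gp1bb, Gp9, Gp5, Gp6, Pf4, Treml1 and Clec1b. They are picked out by gene symbol, from a list drawn up with earlier results of these data known, and 9 of the 10 were matched among the 20696 genes of the deposited tables. All 9 are listed for both cell populations. For Clec1b, which encodes the receptor CLEC-2, the promoter sequence was searched, and RNA levels are not analysed here.

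RNA was sequenced from long-term hematopoietic stem cells (LT-HSC), the rare marrow cells that renew the blood for life, and from multipotent progenitors (MPP), their more numerous and shorter-lived descendants. Both were flow sorted from the bone marrow of mice (strain given as CD57BL/6) that had received a transplant of wild-type (WT) or Tet1 knockout (KO) marrow 20 weeks earlier; the age given is 6 months. Tet1 is one of the enzymes that oxidize methylated cytosine, a step toward its removal. The 4 groups (WT and KO of each population) had 2 libraries each, made from 10000 LT-HSC or 100000 MPP. All 4 groups share the transplant and the sort. The sources used here do not give the deleted part of Tet1, the sort gates, the host cells left after transplant, or whether the libraries of a group came from separate animals. P-values therefore measure only the spread between these libraries, which may be technical.

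Levels are given as CPM, the raw count divided by the library's total and multiplied by 1000000. Totals were 4976459 to 5479731 counts in LT-HSC and 11928659 to 12504581 in MPP, so that 3 counts correspond to 0.547 to 0.603 CPM and to 0.24 to 0.251 CPM. In WT libraries 8 of 10 tested LT-HSC identity genes were higher in LT-HSC than in MPP, against 17.4% of all genes tested. All 8 tested priming genes were higher in MPP, against 16.9%. Both lists were chosen with earlier results of these data known. The counts did not separate the LT-HSC genotypes at Tet1, with 332 and 428 counts in WT against 336 and 379 in KO (log2 fold change -0.09, edgeR adjusted p = 0.765). In MPP the counts were 1207 and 1323 in WT against 765 and 855 in KO (log2 fold change -0.62, edgeR adjusted p = 0.0282). The Y-linked gene Ddx3y lay at 68.3 to 83.3 CPM in the WT libraries and at 1.52 to 5.93 CPM in the KO libraries, and donor sex cannot be told apart from genotype. Read density was taken over 41 long genes with no known role in blood, as the median raw count per 100 kb of gene. It was 3.41 to 4.20 in LT-HSC WT, 34.3 to 38.7 in LT-HSC KO and 3.32 to 4.23 in MPP, not scaled to library totals. The summed level of these long genes was 1068 to 1182 CPM in LT-HSC WT, 3518 to 3915 in LT-HSC KO and 720.8 to 755.7 in MPP.

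Platelets are shed by megakaryocytes, the large marrow cells that arise from stem cells by several routes. On the platelet, the integrin subunits αIIb (Itga2b) and β3 (Itgb3) pair to bind fibrinogen, and the glycoproteins GPIbα, GPIbβ, GPIX and GPV (Gp1ba, Gp1bb, Gp9, Gp5) form the receptor for von Willebrand factor. GPVI (Gp6) is the collagen receptor, TLT-1 (Treml1) is carried in α-granules and reaches the surface on activation, and platelet factor 4 (Pf4) is a chemokine released from the same granules. Some stem cells carry RNA of these genes, a state described as platelet-biased or megakaryocyte-primed. Transcription factors of the GATA and ETS families, such as GATA1 and FLI1, drive their promoters in megakaryocytes.

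The promoters of Itga2b, Gp9, Gp5 and Pf4, which were lower in LT-HSC KO, and of Gp1ba, which did not pass the test, are shown. Each carries 1 or more of the short cores that GATA or ETS factors recognize. The windows of Gp1bb, Gp6 and Clec1b also held a core and are not shown. RefSeq start sites on GRCm38.p6 were available for 9 of the 10 listed genes, and Itgb3 had no entry. The 250 bases before each start were searched on both strands for the GATA core GATAA and for the ETS core CGGAAG or AGGAAG. Capitals mark the matches, each sequence reads 5′ to 3′ on the gene's strand, and none of the matches overlapped another. The windows are chr11:102469884-102470133 (minus strand) for Itga2b, chr11:70638872-70639121 (plus) for Gp1ba, chr6:87777820-87778069 (plus) for Gp9, chr16:30310782-30311031 (minus) for Gp5 and chr5:90772185-90772434 (plus) for Pf4.
Itga2b: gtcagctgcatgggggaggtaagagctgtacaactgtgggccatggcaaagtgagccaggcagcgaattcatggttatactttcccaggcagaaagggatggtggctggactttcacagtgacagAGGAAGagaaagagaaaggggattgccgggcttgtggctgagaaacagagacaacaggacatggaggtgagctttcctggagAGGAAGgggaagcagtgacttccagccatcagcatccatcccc
Gp1ba: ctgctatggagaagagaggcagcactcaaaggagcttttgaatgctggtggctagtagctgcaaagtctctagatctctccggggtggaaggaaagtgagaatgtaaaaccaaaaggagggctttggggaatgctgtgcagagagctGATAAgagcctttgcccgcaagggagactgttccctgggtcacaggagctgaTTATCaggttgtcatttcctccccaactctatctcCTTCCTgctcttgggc
Gp9: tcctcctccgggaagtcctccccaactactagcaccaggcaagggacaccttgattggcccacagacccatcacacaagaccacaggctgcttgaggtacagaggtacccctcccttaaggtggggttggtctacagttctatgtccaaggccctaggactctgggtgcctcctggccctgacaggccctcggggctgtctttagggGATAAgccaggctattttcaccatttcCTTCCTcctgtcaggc
Gp5: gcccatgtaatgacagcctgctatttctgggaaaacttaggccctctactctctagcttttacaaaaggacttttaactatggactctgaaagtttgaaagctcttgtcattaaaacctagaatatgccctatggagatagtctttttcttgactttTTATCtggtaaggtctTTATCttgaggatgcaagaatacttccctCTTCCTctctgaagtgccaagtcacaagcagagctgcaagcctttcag
Pf4: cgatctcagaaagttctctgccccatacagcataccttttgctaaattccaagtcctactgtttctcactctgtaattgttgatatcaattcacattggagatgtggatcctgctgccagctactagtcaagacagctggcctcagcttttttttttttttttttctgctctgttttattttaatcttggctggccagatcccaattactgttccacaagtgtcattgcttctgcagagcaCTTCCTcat

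Of the 9 windows, 5 held GATAA (Gp1ba, Gp9, Gp5, Gp6 and Clec1b), against 22.6% of 32851 RefSeq promoter windows of the same length. The ETS core lay in 6 of 9 (Itga2b, Gp1ba, Gp1bb, Gp9, Gp5 and Pf4), against 39.2% of all windows. Gp1ba, Gp9 and Gp5, whose products sit in one receptor complex, held both cores, as did 7.8% of all windows. In all 3 the ETS match was the one nearest the start, beginning 16 bases before it in Gp1ba and Gp9 and 48 bases before it in Gp5. Pf4 had its ETS match 9 bases before the start, and Itga2b had a pair of matches at 125 and 43 bases. Treml1 had neither motif in this window. A match describes the letters only: Gp1ba, with both cores, did not pass the test between genotypes, while Treml1, with neither, fell (values follow).

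In LT-HSC, RNA of 6 of the 8 testable genes was lower in KO than in WT, against 10.9% of all 15684 genes tested, and 0 of 8 were higher, against 22.5%. The genes that fell were Gp1bb, Treml1, Itga2b, Pf4, Gp9 and Gp5, by between 1.97-fold and 5.12-fold. Itgb3 and Gp1ba did not pass the test, and Gp6 had too few counts to be tested. No gene was higher at an unadjusted p under 0.05 either, and DESeq2 also called 6 lower and 0 higher. The median log2 fold change of the 8 was -1.17, beside 0.03 over all genes tested. Both KO libraries lay below both WT libraries for 7 of 8, against 29.4% of genes tested, and above them for 0, against 36.4%. The authors' deposited table likewise lists 6 of the 9 genes as lower and 0 as higher at an FDR under 0.05. Fewer cells that carry these RNAs and less of them per cell cannot be told apart in such bulk libraries.

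**Figure D1:**
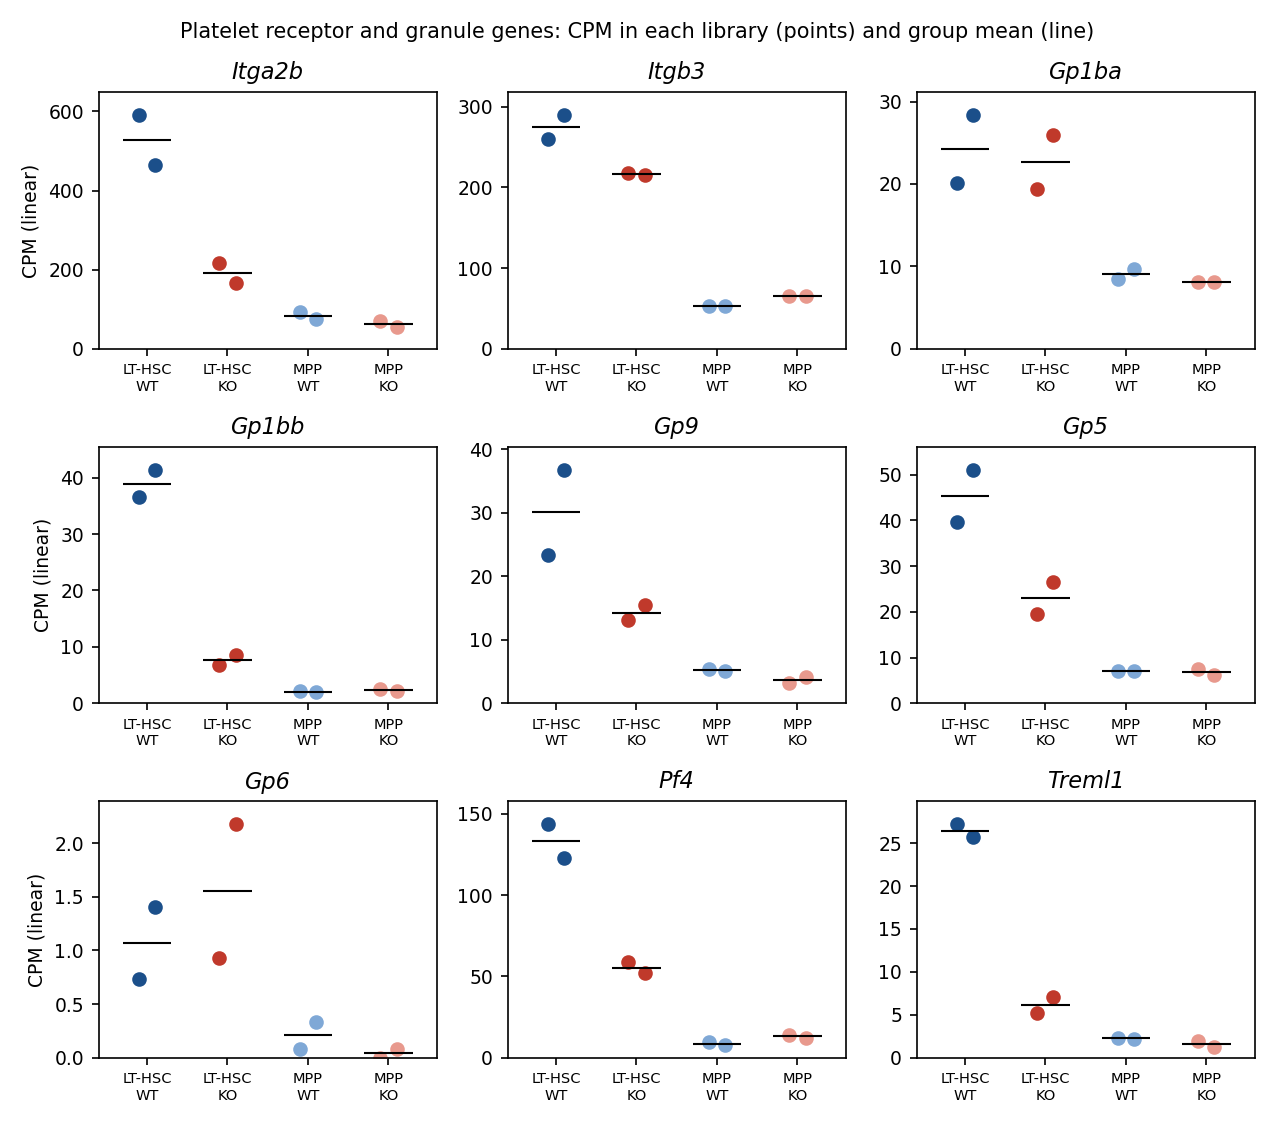
CPM on a linear axis from 0 for each of the 9 genes, with 1 point per library, a line at the group mean and the 4 groups from left to right. Gp1bb, Treml1, Pf4 and Itga2b drop from LT-HSC WT to LT-HSC KO without overlap, Gp1ba overlaps between these groups, and all 9 genes are lowest in the MPP groups.

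The integrin pair split. Itga2b (ENSMUSG00000034664, chromosome 11, 102314611 to 102331436 on mm9) stood at 590 and 464 CPM in LT-HSC WT and at 216 and 165 CPM in LT-HSC KO. Both KO libraries lay well under both WT libraries. The fall was 2.77-fold (log2 fold change -1.47, SE 0.22, 95% interval -1.98 to -0.96, edgeR quasi-likelihood adjusted p = 0.0020). Its partner Itgb3 (ENSMUSG00000020689, chromosome 11, 104469314 to 104531790), which also pairs with αv integrin, stood at 259.7 and 289 CPM in WT and at 218 and 216 CPM in KO. The Itgb3 groups did not overlap, but the difference of -0.34 on the log2 scale (SE 0.15, interval -0.68 to 0.00) did not pass the test, with an adjusted p of 0.120. Itgb3 is the longest of these loci, and the read density seen over long genes would account for 21.4 to 24.2 of its 1092 to 1169 counts in each KO library. The KO difference of Itgb3 passed in the fit of all 8 libraries (adjusted p = 0.0157) and with a replicate block (adjusted p = 0.000243). It passed in none of the other alternatives. With the long-gene read density subtracted it was -0.16 (edgeR adjusted p = 0.48), and DESeq2 gave an adjusted p of 0.223.

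The genes of the von Willebrand factor receptor did not move alike. Gp1ba (ENSMUSG00000050675, chromosome 11, 70452624 to 70456328), which encodes the ligand-binding chain, stood at 20.1 and 28.3 CPM in LT-HSC WT and at 19.4 and 25.9 CPM in KO. Its groups overlapped almost fully. The log2 difference was -0.09 (SE 0.26, interval -0.68 to 0.50, adjusted p = 0.814). Gp1bb (ENSMUSG00000050761, chromosome 16, 18620412 to 18622496), the chain linked to GPIbα by disulfide bonds, stood at 36.5 and 41.4 CPM in WT and at 6.72 and 8.5 CPM in KO. That was the largest fall of the 8, at 5.12-fold (log2 fold change -2.36, SE 0.25, interval -2.93 to -1.78, edgeR adjusted p = 0.000495). The value of Gp1bb is uncertain, because its deposited interval shares 593 bases on the same strand with Sept5, a septin gene listed in a date form of its name. Sept5 itself had 53 and 38 counts in WT and 6 and 4 in KO (log2 fold change -3.15, SE 0.52, edgeR adjusted p = 0.00268), and the sources used here do not say how shared reads were counted.

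Gp9 (ENSMUSG00000030054, chromosome 6, 87728130 to 87729756) encodes GPIX, the small chain needed for the complex to reach the surface. It stood at 23.4 and 36.8 CPM in LT-HSC WT and at 13.1 and 15.4 CPM in KO. Gp5 (ENSMUSG00000047953, chromosome 16, 30307772 to 30310865), the thrombin-cleaved subunit, stood at 39.6 and 51.0 CPM in WT and at 19.4 and 26.5 CPM in KO. Neither pair of groups overlapped. Gp9 fell by 1.07 on the log2 scale (SE 0.27, edgeR adjusted p = 0.0174) and Gp5 by 0.98 (SE 0.23, edgeR adjusted p = 0.0116). These were the highest adjusted p-values of the 6. The Gp9 call was lost without LT-HSC KO replicate 1 (adjusted p = 0.138) or replicate 2 (adjusted p = 0.0666), and the Gp5 call without LT-HSC KO replicate 1 (adjusted p = 0.145). With the long-gene read density subtracted from every gene, Gp9 had an edgeR adjusted p of 0.0762 and Gp5 of 0.0645. Their log2 fold changes were then -0.89 and -0.79. That density would account for 0.715% to 0.899% of the Gp9 counts and 0.791% to 1.15% of the Gp5 counts in the KO libraries. The subtraction also moved the log2 fold change of Gp1ba from -0.09 to 0.10 and that of Itga2b from -1.47 to -1.28. Pf4 moved from -1.27 to -1.07, Gp1bb from -2.36 to -2.19 and Treml1 from -2.11 to -2.02. For Pf4 the density would account for 0.116% to 0.124% of the counts in the KO libraries. Library totals and TMM scaling were computed anew after the subtraction. The part of this rescaling in the shifts was not tested.

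Gp6 (ENSMUSG00000078810, chromosome 7, 4320315 to 4349346) was near the limit of detection. It had 4 and 7 counts in LT-HSC WT, 5 and 11 in LT-HSC KO, 1 and 4 in MPP WT and 0 and 1 in MPP KO. The ratio of KO to WT was 1.46 in LT-HSC (95% exact binomial interval 0.636 to 3.48) and 0.192 in MPP (interval 0.00407 to 1.72). The read density seen over long genes would give 0.989 and 1.22 counts over this locus in LT-HSC WT, 11.2 and 9.96 in LT-HSC KO and 0.963 to 1.23 in MPP. The Gp6 counts in LT-HSC KO and in 3 of the 4 MPP libraries were thus at about that level or below it. No genotype difference in Gp6 was detectable at this depth in either population. In WT libraries the ratio of LT-HSC to MPP was 5.04 (interval 1.61 to 18.5). These intervals cover counting error only.

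Treml1 (ENSMUSG00000023993, chromosome 17, 48499241 to 48506499) stood at 27.2 and 25.7 CPM in LT-HSC WT and at 5.23 and 7.12 CPM in KO. The WT libraries were close together and lay far over both KO libraries. The fall was 4.30-fold (log2 fold change -2.11, SE 0.30, interval -2.78 to -1.43, edgeR adjusted p = 0.00153). Pf4 (ENSMUSG00000029373, chromosome 5, 91201461 to 91202407), one of the most abundant α-granule proteins, stood at 144 and 123 CPM in WT and at 58.8 and 52.0 CPM in KO. Its groups were also well apart, with a 2.41-fold fall (log2 fold change -1.27, SE 0.19, interval -1.70 to -0.84, edgeR adjusted p = 0.00183). The calls of Itga2b, Gp1bb, Treml1 and Pf4 held when any 1 library was left out and in the other alternatives run.

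In MPP 1 of the same 8 genes passed as higher in KO, against 4.74% of 14902 genes tested, and 0 as lower, against 2.46%. The gene called was Itgb3, at 53.0 and 52.5 CPM in WT and 65.2 and 65.8 CPM in KO. Its libraries agreed within less than 1 CPM in each group, and the rise was 1.31-fold (log2 fold change 0.39, SE 0.07, interval 0.21 to 0.57, edgeR adjusted p = 0.0407). That call ended without any 1 of the 4 MPP libraries (adjusted p = 0.157 to 0.332) and in DESeq2 (adjusted p = 0.110). It also ended with library size as the only scaling (adjusted p = 0.0576), without the filter on low counts (0.0601) and in the fit of all 8 libraries (0.0762). Both KO libraries lay above both WT libraries for Itgb3, Gp1bb and Pf4 (3 of 8, against 20.9% of genes) and below them for Itga2b, Gp1ba, Gp9 and Treml1 (4 of 8, against 37.8%). DESeq2 called 0 of the 8 higher, with 2 at an unadjusted p under 0.05, and both tools called 0 lower, with 0 at an unadjusted p under 0.05. The authors' deposited table lists 0 of the 9 genes in either direction at an FDR under 0.05.

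Pf4 stood at 9.47 and 7.65 CPM in MPP WT and at 13.8 and 12.3 CPM in MPP KO. The groups did not overlap and both KO libraries were higher, the opposite order to LT-HSC, but the log2 difference of 0.69 (SE 0.16, interval 0.29 to 1.09) had an adjusted p of 0.0667. Itga2b stood at 93.3 and 74.7 CPM in WT and at 70.3 and 56.1 CPM in KO, lower in KO without overlap but not past the test (log2 difference -0.33, interval -0.73 to 0.06, adjusted p = 0.250). With a replicate block both passed, Itga2b at an adjusted p of 5.72e-11 and Pf4 at 3.64e-07.

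Gp9 in MPP stood at 5.37 and 5.07 CPM in WT and at 3.20 and 4.19 CPM in KO, and its interval ran from -0.97 to 0.13 on the log2 scale. Gp1ba stood at 8.47 and 9.73 CPM in WT and at 8.16 and 8.06 CPM in KO (interval -0.46 to 0.28). Gp5 overlapped between genotypes, at 6.96 and 7.07 CPM in WT and 7.44 and 6.13 CPM in KO (interval -0.39 to 0.45). Neither Gp9, Gp1ba nor Gp5 passed the test. Gp1bb, at 2.10 and 2.00 CPM in WT and 2.56 and 2.10 CPM in KO, had only 24 to 32 counts per library. Treml1, at 2.26 and 2.24 CPM in WT and 2.00 and 1.21 CPM in KO, had 15 to 27. Their intervals were wide, from -0.41 to 0.93 for Gp1bb and from -1.27 to 0.45 for Treml1. Over the 8 genes the median log2 difference was -0.03, beside -0.01 over all genes tested.

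**Figure D2:**
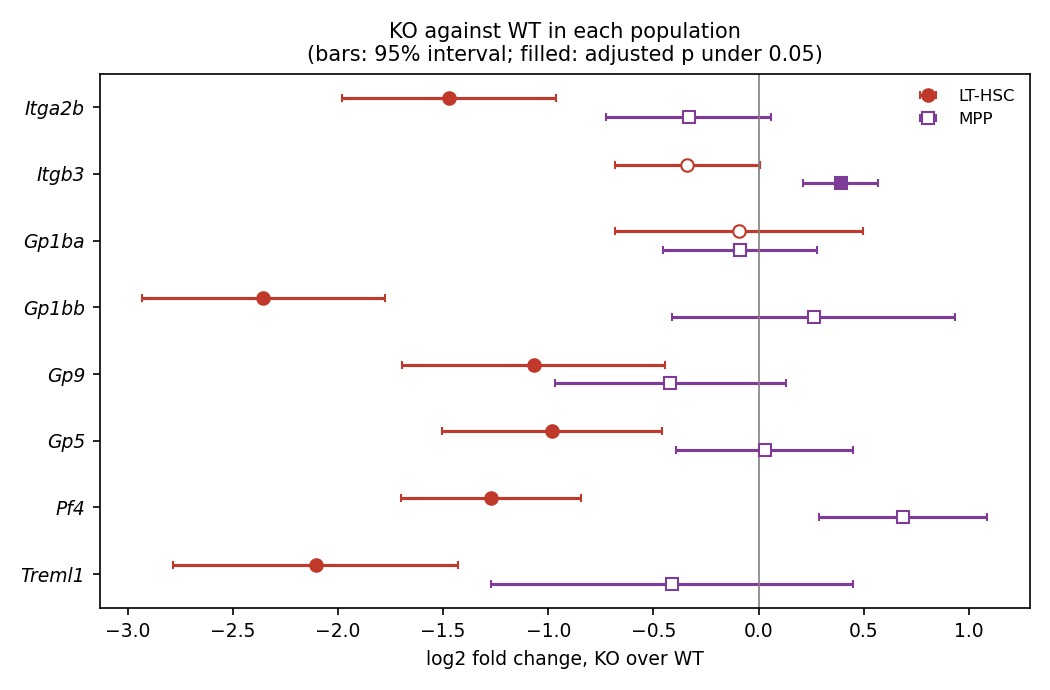
Log2 fold change of KO over WT for the 8 testable genes (x axis), with 95% intervals as bars, circles for LT-HSC, squares for MPP and filled symbols for an adjusted p under 0.05. In LT-HSC 6 genes lie left of 0 with filled symbols and Gp1ba sits near 0; in MPP the filled symbol is Itgb3 at 0.39.

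The effect of genotype itself was compared between populations with an interaction term over all 8 libraries. The difference (LT-HSC effect minus MPP effect) was below 0 and passed for 6 of the 9 genes that entered this fit, against 8.5% of 16551 genes tested, and above 0 for none of the 9, against 13.6%. It was -2.62 for Gp1bb (SE 0.33, edgeR adjusted p = 0.0028) and -1.97 for Pf4 (SE 0.23, edgeR adjusted p = 0.00244). Itgb3 passed too, at -0.74 (SE 0.13, edgeR adjusted p = 0.0084), its lower LT-HSC value and higher MPP value adding up. Treml1 (-1.70, adjusted p = 0.0257), Itga2b (-1.15, adjusted p = 0.0239) and Gp5 (-1.02, adjusted p = 0.0427) passed with less margin. Gp1ba (-0.01, SE 0.31, adjusted p = 0.989), Gp9 (-0.66, SE 0.37, adjusted p = 0.232) and Gp6 (2.51, SE 1.46, adjusted p = 0.253) did not.

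Some of these interaction calls did not hold when 1 library was left out. Over all alternatives the estimate stayed between -1.36 and -0.93 for Itga2b, -2.02 and -1.28 for Treml1, and -1.25 and -0.82 for Gp5. Gp1bb and Pf4 passed without any 1 of the 8 libraries and in all other alternatives. Itgb3 was lost only without MPP WT replicate 2 (adjusted p = 0.0544). Itga2b was lost without LT-HSC WT replicate 1 (0.0556), LT-HSC KO replicate 2 (0.0802), MPP WT replicate 1 (0.0569) or 2 (0.0927) and MPP KO replicate 1 (0.114). Treml1 was lost without LT-HSC WT replicate 1 (0.0504), LT-HSC KO replicate 1 (0.0718), MPP WT replicate 1 (0.0797) or 2 (0.0895) and MPP KO replicate 1 (0.130). Gp5 was lost without LT-HSC WT replicate 2 (0.0751), LT-HSC KO replicate 1 (0.106), MPP WT replicate 1 (0.108) or 2 (0.130) and MPP KO replicate 1 (0.137) or 2 (0.0679). Subtracting the long-gene read density ended the calls of Itga2b (adjusted p = 0.0776), Gp5 (0.0932) and Treml1 (0.0509), and library size as the only scaling ended that of Gp5 (0.0645).

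Between populations all of these genes were higher in the stem cells. In WT libraries 8 of 8 passed as higher in LT-HSC than in MPP, against 17.4% of 14660 genes tested, and 0 as lower, against 16.9%, with a median log2 difference of 2.69 beside 0.02 over all genes. The gap was 19.2-fold for Gp1bb (log2 fold change 4.26, SE 0.21), 15.8-fold for Pf4 (3.99, SE 0.20) and 11.9-fold for Treml1 (3.57, SE 0.23). It was smaller for Gp5 (6.52-fold), Itga2b (6.41-fold), Gp9 (5.78-fold) and Itgb3 (5.27-fold), and smallest for Gp1ba (2.68-fold, log2 fold change 1.42, SE 0.22). Adjusted p-values in edgeR ran from 0.000121 for Gp1bb to 0.00611 for Gp1ba. All of these calls held in each alternative.

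In KO libraries 8 of 8 were again higher in LT-HSC, against 27.2% of 16150 genes tested, and 0 lower, against 23.6%, but the median log2 difference was 1.60, beside -0.01 over all genes. The genes lay closer together here. Pf4 had the largest gap (3.83-fold) and Gp1ba the smallest (2.52-fold), with Gp9 at 3.48-fold, Treml1 at 3.45-fold, Gp5 at 3.05-fold, Itgb3 at 3.0-fold, Gp1bb at 2.94-fold and Itga2b at 2.73-fold. Gp1ba differed little between the genotypes in this gap, at 2.68-fold and 2.52-fold. The Treml1 call (edgeR adjusted p = 0.00819) was lost without LT-HSC KO replicate 2 (adjusted p = 0.0764). These comparisons use the same libraries as the genotype comparisons, so the values are set side by side and not counted as separate evidence.

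**Figure D3:**
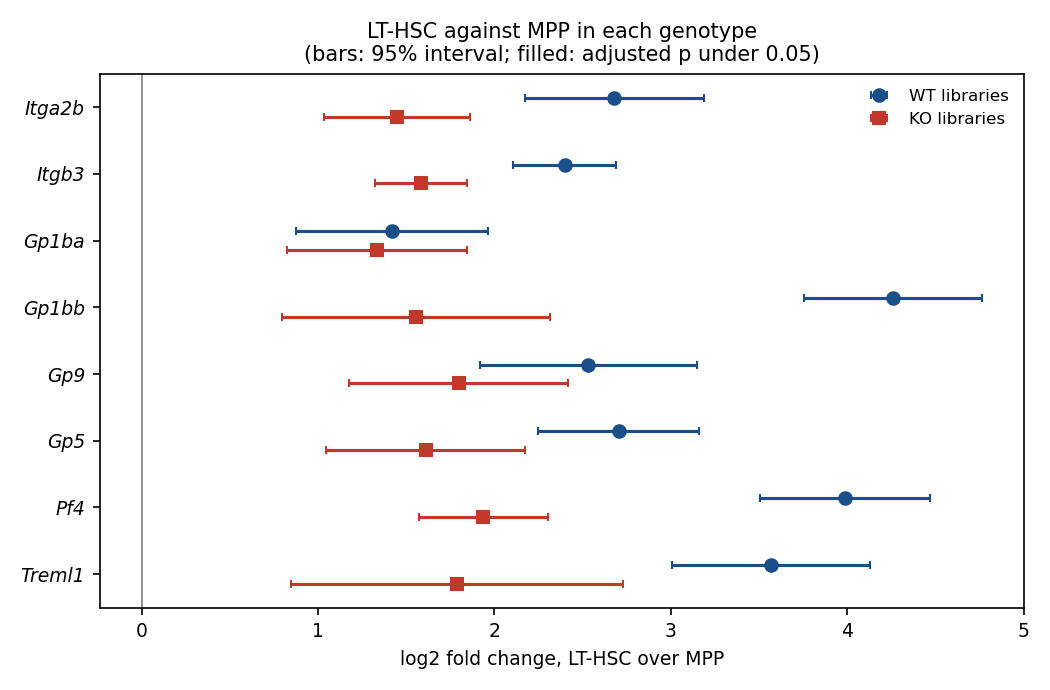
Log2 fold change of LT-HSC over MPP (x axis) for the 8 testable genes, circles for WT libraries and squares for KO libraries, with 95% intervals as bars and filled symbols for an adjusted p under 0.05. Gp1bb, Pf4 and Treml1 spread out to 4.26, 3.99 and 3.57 in WT, and all 8 genes lie between 1.33 and 1.94 in KO.

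The levels of different genes were compared per kilobase of exon. In LT-HSC WT, Pf4 led with 185 ± 20.2 CPM per kb (mean ± SD, n = 2), ahead of Itga2b at 96.6 ± 16.4 and Itgb3 at 46.5 ± 3.56. Gp9 followed at 34.1 ± 10.8, whose spread reached that of Itgb3. Gp5 at 20.6 ± 3.68, Treml1 at 18.9 ± 0.741 and Gp1bb at 18.7 ± 1.66 did not differ beyond their spread. Gp1ba was lower at 8.91 ± 2.15, and Gp6 stood at 0.181 ± 0.0811. Measured this way, RNA of the ligand-binding chain Gp1ba was the scarcest of the 4 receptor-complex genes in WT stem cells.

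In LT-HSC KO the order changed below Pf4, which stood at 76.8 ± 6.70 CPM per kb. Itgb3 (36.8 ± 0.291) and Itga2b (34.98 ± 6.58) were level within their spread. Gp9 stood at 16.2 ± 1.88, Gp5 at 10.5 ± 2.27 and Gp1ba at 8.33 ± 1.68, the last pair within their spread. Treml1 (4.40 ± 0.952) and Gp1bb (3.65 ± 0.602) now lay below Gp1ba and within their spread of each other, and Gp6 was last at 0.263 ± 0.149, at the level of the long-gene read density.

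Levels per kb were lower for all 9 genes in MPP. In MPP WT, Itga2b (15.4 ± 2.42 CPM per kb) and Pf4 (11.9 ± 1.79) led, followed by Itgb3 (8.93 ± 0.0636) and Gp9 (5.92 ± 0.237). Gp1ba (3.35 ± 0.327) and Gp5 (3.19 ± 0.0346) were level within their spread, ahead of Treml1 (1.61), Gp1bb (0.980) and Gp6 (0.0353). In MPP KO, Pf4 led at 18.2 ± 1.47, with Itga2b (11.6 ± 1.84) and Itgb3 (11.1 ± 0.075) level within their spread. Gp9 (4.20 ± 0.798), Gp5 (3.09 ± 0.421) and Gp1ba (2.98 ± 0.0242) came next, then Treml1 (1.14), Gp1bb (1.12) and Gp6 (0.00683). The 9 genes together took 1141 and 1061 CPM in LT-HSC WT, 558 and 519 in LT-HSC KO, 181 and 161 in MPP WT and 173 and 156 in MPP KO.

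Other genes of the megakaryocyte and platelet programme were counted as lists, and their directions were mixed. Over all genes tested in LT-HSC, 10.9% were lower and 22.5% higher in KO, the shares beside which the counts of this and the next lists stand. Of 13 tested transcription regulators in LT-HSC, 7 were lower in KO, 1 was higher and 5 did not pass (median log2 fold change -0.54). The ETS factor gene Fli1 went from 348 and 402 CPM in WT to 189.5 and 200.4 CPM in KO (log2 fold change -0.94, adjusted p = 0.00247). Meis1 (-0.83, adjusted p = 0.0043) and Mef2c (-0.79, adjusted p = 0.00497) fell with it. Gata1, the master regulator of both megakaryocytes and red cells, was the exception: it rose from 62.4 and 55.7 CPM to 102 and 122 CPM (log2 fold change 0.91, SE 0.18, adjusted p = 0.0053).

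Among 18 tested other surface receptors in LT-HSC, 7 were lower in KO, 3 were higher and 8 did not pass (median -0.48). P-selectin (Selp), an α-granule membrane protein, went from 124 and 91.2 CPM to 36.8 and 42.1 CPM (log2 fold change -1.46, adjusted p = 0.00194). The adhesion molecule Esam (-1.32), the laminin receptor chain Itga6 (-1.07) and the thrombin receptor F2r (-1.05) also fell, with adjusted p-values of 0.00138, 0.00164 and 0.00279. The 3 that rose, named after their values were seen, were Cd226 (4.66), Cd36 (3.37) and Itga2 (2.04), all at low counts. Platelet receptor signalling genes moved one way where they passed: 10 of 18 were lower, 0 higher and 8 did not pass (median -0.60). They included Fcer1g (-1.66, adjusted p = 0.00496), the γ chain through which GPVI signals, and Rap1b (-1.18, adjusted p = 0.00112), the small GTPase that activates αIIbβ3.

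Of 23 tested genes for other granule cargo and granule assembly, 8 were lower in LT-HSC KO, 2 were higher and 13 did not pass (median -0.68). Von Willebrand factor (Vwf), the ligand of the receptor complex above, went from 485 and 421 CPM to 209 and 198 CPM (log2 fold change -1.16, adjusted p = 0.00196). Vegfa also fell (-1.20, adjusted p = 0.000976). The genes that rose were F13a1, the A subunit of coagulation factor XIII (2.22, adjusted p = 0.00347), and Thbs1, which encodes thrombospondin-1 (1.31, adjusted p = 0.00279); 2 of 23 is below the share of all genes that rose. Of 11 genes for platelet shape and release, 3 were lower, 0 higher and 8 did not pass (median -0.41): Was, Wipf1 and Rhoa, with log2 fold changes of -0.85, -0.55 and -0.55. The median over all tested genes was 0.03 in this comparison.

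In MPP, where 4.74% of all genes tested were higher and 2.46% lower in KO, the counts were as follows. Regulators gave 1 lower and 0 higher of 13 (Gata2, log2 fold change -0.45), and signalling genes gave 0 in either direction of 18. Surface receptors gave 4 lower and 1 higher of 18: P2ry1 (-0.84), Selp (-0.82), F2r (-0.61) and Itga6 (-0.59) fell, the last 3 as in LT-HSC. Granule genes gave 4 higher and 1 lower of 24. Thbs1 (1.39) and F13a1 (0.92) rose in MPP too, with Slc35d3 (1.58) and Serpine2 (1.22). Shape and release genes gave 1 lower of 11, Mylk (-0.79). In the interaction, with 8.5% of all genes below 0 and 13.6% above it, 4 of 13 regulators, 6 of 18 surface receptors, 6 of 18 signalling genes, 7 of 24 granule genes and 2 of 12 shape and release genes were below 0. Above it were 1 regulator, 3 surface receptors, 2 granule genes and none of the signalling or the shape and release genes.

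**Figure D4:**
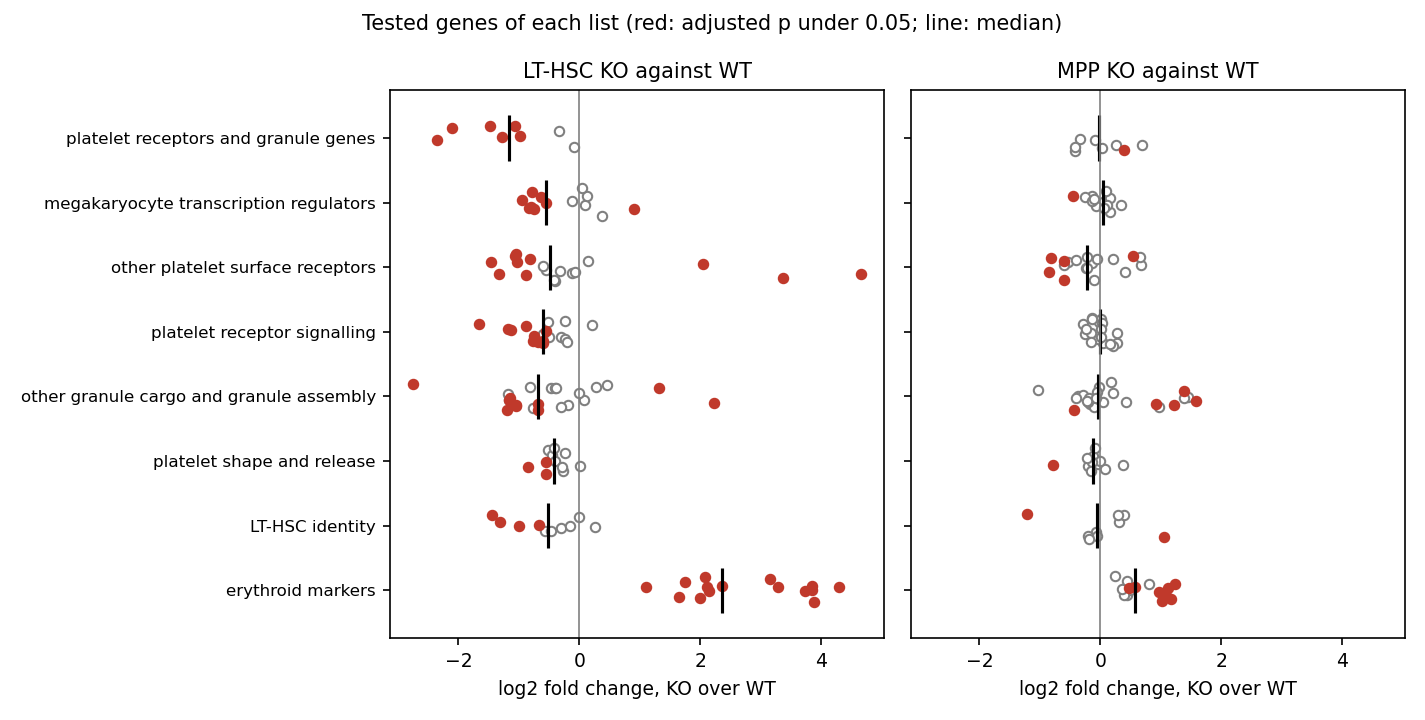
Log2 fold change of KO over WT for each tested gene of 8 lists, in LT-HSC (left) and MPP (right), with red points for an adjusted p under 0.05 and a line at the list's median. In LT-HSC the medians of the platelet lists lie between -1.17 and -0.41 while all 15 tested erythroid markers lie above 0; in MPP the platelet medians lie near 0.

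Markers of several other cell types were counted in the same LT-HSC libraries, beside the same shares of all genes (22.5% higher, 10.9% lower). All 15 tested erythroid markers were higher in LT-HSC KO, and their summed level was 1542 to 1825 CPM in WT and 6236 to 7537 CPM in KO. Of 8 stromal markers 7 were higher, with sums of 38.0 to 41.4 CPM in WT and 491 to 692 CPM in KO; Cxcl12 and Bglap were at 0 in both WT libraries. Granulocyte and monocyte markers were higher for 6 of 8 tested (sums 44.7 to 49.2 against 79.0 to 81.0 CPM), and endothelial markers for 2 of 6, although their sum was lower (336 to 371 against 247 to 295 CPM). Of 8 tested B, T and NK markers 3 were higher and 3 lower (110 to 114 against 73.4 to 75.9 CPM), and of 7 tested priming genes 1 was higher and 3 lower. LT-HSC identity genes were lower for 4 of 10, with sums of 1580 to 1677 CPM in WT and 1297 to 1350 CPM in KO. The counts for endothelial, B, T and NK and priming genes that rose, 2 of 6, 3 of 8 and 1 of 7, are few and lie around the share of all genes. The part of the marker shifts in the falls of the platelet genes was not tested. Subtracting the long-gene read density left Itga2b, Gp1bb, Pf4 and Treml1 past the test in LT-HSC and ended the calls of Gp9 and Gp5, with the values given above.

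In MPP, where 4.74% of all genes were higher in KO, 8 of 15 erythroid markers were higher (sums 1121 to 1239 CPM in WT against 1547 to 1718 in KO), as were 5 of 9 granulocyte and monocyte markers (1193 to 1203 against 2051 to 2059). B, T and NK markers were higher for 3 of 11 (497 to 500.0 against 564 to 570.4 CPM). Of 8 priming genes 2 were higher and 1 lower, and their sum went from 10970 to 11150 CPM in WT to 20410 to 20560 in KO; most of it was Ighm, the immunoglobulin heavy chain gene, at 9473 and 9701 against 18970 and 19170 CPM. Stromal markers were higher for 1 of 3 tested, endothelial markers for 1 of 6, and LT-HSC identity genes were higher for 1 and lower for 1 of 9. The part of these shifts in the MPP values of the platelet genes was not tested.

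In WT libraries the related lists were higher in LT-HSC than in MPP for part of their genes, beside 17.4% of all genes higher and 16.9% lower. This held for 9 of 13 regulators (Gfi1b 2.16, Gata2 1.84), 10 of 18 surface receptors (Esam 2.83, Jam3 2.35), 12 of 23 granule genes (Vwf 4.65, Clu 4.62) and 6 of 18 signalling genes. Lower in LT-HSC were 0 regulators, 3 surface receptors, 1 granule gene (F13a1, -4.26) and 3 signalling genes. For surface receptors and signalling genes alike, 3 of 18 lay at the share of all genes. Of 11 tested shape and release genes, 2 were higher and 2 lower, near the share of all genes in both directions.

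The genes whose pattern over the 8 libraries lay closest to the mean of the 9 platelet genes were sought among 10511 genes of at least 5 CPM on average. Likeness was the root mean square difference of log2 CPM profiles, each centred on its own mean. The mean of the 9 includes Gp6, which was near the limit of detection, and its weight in the ranking was not tested. The mean profile of the platelet genes stood at 1.58 in LT-HSC WT, 0.58 in LT-HSC KO, -1.04 in MPP WT and -1.13 in MPP KO. The 6 closest genes were Gprc5a (difference 0.133), Ndrg2 (0.143), Fam110c (0.151), Mfsd2b (0.170), Fgd5 (0.182) and Ptrf (0.184). Fgd5, a gene used to mark stem cells, averaged 83.5 CPM in LT-HSC WT, 42.0 in LT-HSC KO, 13.1 in MPP WT and 15.3 in MPP KO. Gprc5a averaged 23.9, 13, 3.30 and 3.66 CPM in the same groups. This likeness is a description over libraries that share populations and genotypes.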

How the data were processed

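RNA was measured by sequencing of poly(A)-selected RNA with paired 50 bp reads in 8 libraries. CASAVA and TopHat with mm9 were used, per the submitters' processing notes; read counter, annotation and strand setting: not given in the sources used here. The authors deposited raw counts per gene and library in 1 table per population. The deposited tables also hold the authors' log2 fold change and mean log2 CPM, likelihood ratio score, p-value and FDR columns, as named in their headers. Columns were matched by genotype and replicate, and 0 columns were left unmatched.

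Counts were filtered with filterByExpr, scaled by TMM and tested with edgeR 4.0.16 (R 4.3.3) by the quasi-likelihood test, with Benjamini-Hochberg adjustment over all genes and a threshold of 0.05. Each genotype or population comparison used its own 4 libraries, and the interaction used all 8. CPM used library totals alone, and levels per kb used GENCODE vM21 exon unions. Intervals are 95%. The edgeR script was tested on simulated data. DESeq2 1.42.0, other scalings, no filter, subtraction of long-gene read density, a replicate block and leave-one-out were alternatives.

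The genes and the 13 other lists were chosen with earlier results of these data known. All listed genes are named; of each other list, at most 4 called genes by fold change with a mean of at least 50 counts; and the 6 genes closest in pattern (pseudocount 0.5 CPM). Exceptions are stated. RNA levels of Clec1b and 8 genes of the other lists are not analysed here. 1 called gene of the surface receptor list is not reported here by name.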

Additional observations from a re-analysis of the deposited data

Results flagged for a closer look

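The effect of genotype differed between LT-HSC and MPP by the interaction test for 6 genes, as log2 differences of the LT-HSC effect minus the MPP effect: -2.62 for Gp1bb, -1.97 for Pf4, -1.70 for Treml1, -1.15 for Itga2b, -1.02 for Gp5 and -0.74 for Itgb3. For Gp1bb, Pf4 and Itgb3 the estimates in the 2 populations had opposite signs, and that of Gp5 in MPP was near 0. Of the MPP estimates of these 6 genes, that of Itgb3 passed the test, and its call ended without any 1 MPP library. Gp1bb carries the uncertainty of its overlap with Sept5, whose own interaction was -4.33 (SE 0.51, edgeR adjusted p = 0.00244).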

How the results depend on the processing

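No called fold change of the platelet genes changed sign in the alternatives run. In LT-HSC KO against WT, 81 of 88 values for single genes kept their call, 5 lost it and 2 gained it; in MPP 78 of 88 kept it, in WT populations 72 of 72, in KO populations 71 of 72 and in the interaction 104 of 125. The cause of these losses was not tested. Leave-one-out fits have fewer libraries than the main fits.

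Counts over all genes moved more. Genes called in LT-HSC KO against WT numbered 5246, and 2062 with background subtracted; leaving out 1 library gave 2325 to 6756, with 4 to 6 platelet genes lower. In MPP 1073 genes were called, 575 without the filter, 500 with all 8 libraries in one fit and 0 to 268 with 1 library left out. Without MPP WT replicate 1 or 2, edgeR called 0 genes, with 2119 and 2220 at an unadjusted p under 0.05. Platelet genes higher in MPP KO then numbered 0, as with library size only, no filter, DESeq2 or all 8 libraries, with 2 at an unadjusted p under 0.05 in each. WT LT-HSC against WT MPP gave 5022 calls (2464 to 7069 with 1 library left out). KO LT-HSC against KO MPP gave 8197 calls, 5232 with background subtracted and 5370 to 6542 with 1 library left out (7 to 9 platelet genes higher). The interaction gave 3663 calls, 2076 with background subtracted and 1132 to 4237 with 1 library left out; platelet genes lower fell from 6 to 3 and to 2 to 5. Scaling by library size alone gave 609 higher and 643 lower genes in MPP instead of 707 and 366, and 5004 higher and 2801 lower in KO populations instead of 4386 and 3811, where it moved the median of all genes from -0.01 to 0.13.

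A replicate block raised the calls to 8824 in LT-HSC, 7234 in MPP and 6903 in the interaction. In MPP the block gave 2 platelet genes higher and 1 lower. The labels say nothing of what the replicate number stands for, and with 2 numbers it cannot be checked as a pairing; same-numbered libraries deviated together (r = 0.53 in LT-HSC and 0.81 in MPP, across genes).

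Depth limits Gp6 in all groups, and Gp1bb and Treml1 in MPP.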

Other observations

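Ratios of counts within a library do not depend on its scaling. Itga2b to Itgb3, the chains of one integrin, stood at 2.27 and 1.60 in LT-HSC WT, 0.991 and 0.766 in LT-HSC KO, 1.76 and 1.42 in MPP WT and 1.08 and 0.853 in MPP KO. The ratio was thus lower in all 4 KO libraries than in all 4 WT libraries, also in MPP, where Itga2b alone did not pass the test. Gp9 to Gp1ba stood at 1.16 and 1.30 in LT-HSC WT, and at 0.673 and 0.595 in LT-HSC KO, beside 0.634 and 0.521 in MPP WT and 0.392 and 0.52 in MPP KO. Gp5 to Gp1ba stood at 1.97 and 1.80, then 1.00 and 1.02, with 0.822 and 0.726 in MPP WT and 0.912 and 0.76 in MPP KO. Gp1bb to Gp1ba stood at 1.82 and 1.46 in LT-HSC WT and at 0.346 and 0.328 in LT-HSC KO, beside 0.248 and 0.205 in MPP WT and 0.314 and 0.26 in MPP KO. These ratios were not tested.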
